A study of Homo sapiens with 29 samples.

Results

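The cells studied were BEAS-2B, a line of human airway epithelium made immortal by a hybrid of adenovirus and SV40, exposed for 24 h to 100 nM N-OH-PhIP and set against cells given the solvent DMSO alone. PhIP is a heterocyclic amine formed in cooked meat and tobacco smoke. Cells hydroxylate it at nitrogen to N-OH-PhIP, which gives DNA adducts after further activation. The comparison took the arrays whose titles give the 100 nM dose and those whose titles give the DMSO control, 3 of each and therefore 6 of the 29 arrays of the series. Both groups are the parental line with no engineered allele, were grown in LHC-9 medium, stood at about 70% confluence and held 1% DMSO, and the labels call their sources triplicate cultures. The other arrays hold 8 further doses. Those used beside the main comparison were the 6 lower doses of 0.1, 0.5, 1, 5, 10 and 50 nM (17 arrays, 3 a dose but 2 at 0.5 nM) and the next higher dose of 500 nM (3 arrays). Doses are those of the sample titles, which go down to 0.1 nM, whereas the series' own description stops at 0.5 nM. BEAS-2B cells carry the SV40 large T antigen, a viral protein that binds p53.

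The transcription factor p53 is held at a low level by the ubiquitin ligase MDM2 and accumulates after DNA damage, when it activates genes of growth arrest, repair, metabolism and cell death, MDM2 among them. A bulky adduct on the template strand can stop RNA polymerase II, and a long gene offers more positions at which this can happen than a short one. Several of the longest human genes, such as FHIT and WWOX, lie across common fragile sites, regions that break under replication stress. These 3 facts are background and not results of these arrays.

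Sequences are shown for miR-34a and for promoters of p53 target genes, and their part in the changes below was not tested. MIR34A, the gene of miR-34a, was among the genes with the largest rise, and its mature arms are given with the seed (bases 2 to 8) in capitals. Both lie on the minus strand of chromosome 1 in RefSeq's GRCh38.p14, at chr1:9151735-9151756 for the 5p arm and chr1:9151693-9151714 for the 3p arm.
hsa-miR-34a-5p: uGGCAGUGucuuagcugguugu
hsa-miR-34a-3p: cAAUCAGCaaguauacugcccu

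The promoters of p53 target genes were searched for the p53 half-site consensus, a motif of 10 bases that reads the same on both strands, with overlapping matches allowed. RefSeq's promoter table (GRCh38.p14) gave a window of 300 bases, 250 before and 50 after the start of the gene, for 33 of the 42 tested p53 target genes. A match was found in 5 of the 19 such genes that rose at 100 nM (26.3%) and in 1 of the other 14 (7.14%), while 6.63% of all 35116 promoters in the table held one. These shares are unlike measures. The first 2 count genes with a match in any of their windows and the last counts windows, of which a gene can have up to 12. The difference between the shares was not tested. The 5 genes that rose are shown with up to 40 bases on either side of the match, which is in capitals. They are SESN1 (chr6:109008988-109009077, minus strand), FAS (chr10:88991269-88991358, plus strand), DDB2 (chr11:47214939-47215023, plus strand), RPS27L (chr15:63157487-63157576, minus strand) and AEN (chr15:88621266-88621355, plus strand).
SESN1: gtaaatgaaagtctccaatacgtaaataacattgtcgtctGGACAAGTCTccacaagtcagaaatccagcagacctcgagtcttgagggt
FAS: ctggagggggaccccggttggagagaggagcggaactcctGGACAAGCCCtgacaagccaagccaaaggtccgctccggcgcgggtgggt
DDB2: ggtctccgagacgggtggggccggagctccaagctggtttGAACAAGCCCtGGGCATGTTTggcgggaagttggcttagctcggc
RPS27L: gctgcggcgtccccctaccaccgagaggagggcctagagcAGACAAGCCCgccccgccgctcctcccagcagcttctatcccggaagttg
AEN: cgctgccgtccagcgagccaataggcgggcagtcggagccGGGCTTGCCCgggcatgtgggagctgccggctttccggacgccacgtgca
The match began 49 bases before the start in SESN1, 122 in FAS, 59 in RPS27L and 34 in AEN. DDB2 held 2 matches 1 base apart just after its start, and 2 matches at most 13 bases apart were found in 0.0285% of all promoters. A match describes the letters of the window and is not a measured binding site.

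At 100 nM, p53 target genes were higher and very long genes were lower than in DMSO, and most of the changes were small. Of 27307 tested probe sets 792 (2.9%) were called at a Benjamini-Hochberg adjusted p of 0.05 in the limma fit, 374 higher (1.37%) and 418 lower (1.53%). The median size of a called log2 change was 0.44, and 11 called probe sets were at least 2-fold higher and 18 at least 2-fold lower. At least 1.5-fold were 97 higher (0.355%) and 95 lower (0.348%). Over all tested probe sets the median log2 change was 0.01. Of the called probe sets 786 had all 3 arrays at 100 nM on the same side of all 3 DMSO arrays, which was so for 11.2% of tested probe sets upward and 11.5% downward whether called or not. The calls fell on 571 named genes. With each of 12174 genes taken at its tested probe set of highest mean level, 225 were higher (1.85%) and 248 lower (2.04%). At an unadjusted limma p under 0.05 stood 15.3% of all probe sets, and per gene 9.31% were higher and 7.52% lower, the shares against which the unadjusted counts below are to be read. Log2 changes here and below are of intensity plus an offset of 16, which shrinks the changes of dim probe sets. The count of calls was 442 without DMSO replicate 2.

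**Figure D1:**
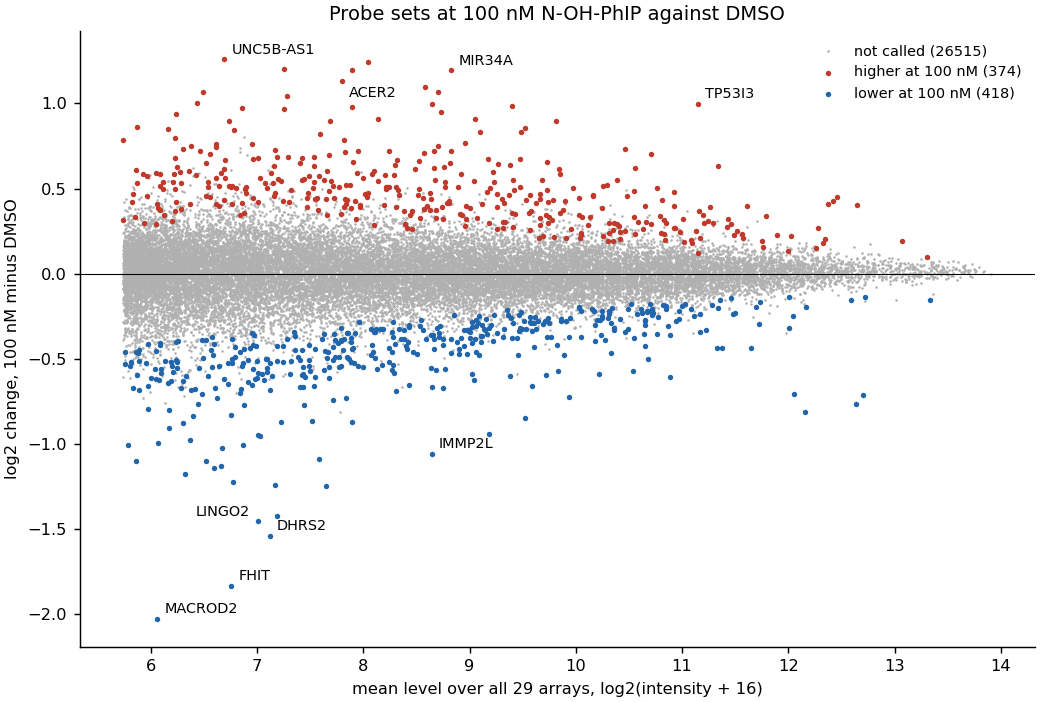
Each point is 1 of 27307 probe sets, with its mean level over the 29 arrays on the horizontal axis, as log2(intensity + 16), and its log2 change at 100 nM N-OH-PhIP minus DMSO on the vertical axis. Red points were higher and blue points lower at 100 nM at an adjusted p of 0.05, and the lowest blue points, MACROD2 at -2.03 and FHIT at -1.83, lie farther from 0 than any red point.

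Measures of array quality differed little between the groups. Arrays of a group correlated at 0.993 or more at 100 nM and 0.990 or more in DMSO across tested probe sets. The ratio of the 3′ control probe set to the 5′ one, on the log2 scale, was 2.16 ± 0.11 at 100 nM and 2.20 ± 0.07 in DMSO for actin, and 0.16 ± 0.01 at 100 nM and 0.14 ± 0.01 in DMSO for GAPDH (SD, n = 3 each). The summed intensity of 29 epithelial keratin and adhesion genes was 51550, 51050 and 55160 at 100 nM, against 51010, 50050 and 51420 in DMSO. The defining epithelial markers KRT18 and EPCAM ran from 3870 to 5440 at 100 nM and from 3890 to 5270 in DMSO, and each overlapped between the groups. CDH1, a further one, was at 6170, 6160 and 6490 at 100 nM, against 6710, 6540 and 6590 in DMSO. Every 100 nM array of CDH1 was lower, and it was not called (-0.08 ± 0.03, limma adjusted p 0.24). KRT8 was at 547, 533 and 712 at 100 nM, against 464, 497 and 503 in DMSO, and the mesenchymal marker VIM at 162, 174 and 136 at 100 nM, against 97.2, 112 and 130 in DMSO. In both every 100 nM array was higher, and neither was called (0.27 ± 0.14, adjusted p 0.34, and 0.43 ± 0.13, adjusted p 0.084). KRT5 was at 698 to 897 at 100 nM and 788 to 972 in DMSO and not called. The leukocyte marker PTPRC was at 9.95 or less at 100 nM and 10.1 or less in DMSO. Of 18 leukocyte markers 4 were above the level minimum of 37.4 used for testing, and the sum over the list was 856 to 929 at 100 nM and 759 to 797 in DMSO. CD74, an antigen presentation chaperone that other cells also express, made up much of that sum, at 484, 459 and 391.5 at 100 nM, against 341.5, 347 and 363 in DMSO, and was the 1 member called (0.32 ± 0.09), a call lost when any 1 of the 6 arrays but replicate 3 of the 100 nM group was left out. The other 2 tested probe sets of CD74, at 0.001 and 0.19, were not called. Of the 16 endothelial and 16 fibroblast markers 3 and 2 were above the minimum, with none called. In bulk RNA, fewer cells with a transcript and less of it per cell cannot be told apart.

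The p53 target genes were listed in 3 sets by role. Like all lists here, these were chosen with earlier results of these data known, so their counts are description only. Of the 42 tested members 26 rose and 0 fell, and at an unadjusted limma p under 0.05 there were 32 higher and 0 lower. Their median log2 change was 0.39, against 0.02 over all genes, and 40 of 42 changes were above 0. TP53I3, a quinone oxidoreductase named for its induction by p53, had intensities of 3209, 3457 and 2920 at 100 nM, against 1509, 1588 and 1669 in DMSO. Every 100 nM array was above every DMSO array by a wide margin, a 2.0-fold difference (log2 change 1.00 ± 0.08 SE, limma adjusted p 2.1e-08).

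Among targets of growth arrest and feedback 9 of 15 rose and 0 fell (median 0.33). CDKN1A, the p21 inhibitor of cyclin-dependent kinases, was at 6376, 6543 and 5883 at 100 nM, against 4588, 4479 and 4920 in DMSO. The groups did not overlap, and the log2 change was 0.43 ± 0.05 (limma adjusted p 1.3e-05). MDM2 was measured by 9 tested probe sets, of which 8 rose, by 0.41 to 1.07. Its brightest probe set gave 6148, 6136 and 5999 at 100 nM, against 4875, 4227 and 4692 in DMSO (log2 change 0.41 ± 0.05). Its probe set of largest change gave 724, 630.3 and 507 at 100 nM, against 255, 299 and 303 in DMSO (1.07 ± 0.12). Both sets of arrays lay apart on either probe set, but the size differed between the dim and the bright one. By the brightest probe set of each gene, PHLDA3, a p53-induced repressor of AKT, rose most in this set (0.72 ± 0.12). ZMAT3, an RNA-binding zinc finger protein, rose by 0.51 ± 0.07. RPS27L, a ribosomal protein-like regulator of MDM2 whose promoter is shown above, gave 7381, 7467 and 6824 at 100 nM, against 5356, 5284 and 5742 in DMSO. Its rise was small but even over the arrays, at 0.40 ± 0.04 (adjusted p 5.3e-07). The phosphatase PPM1D (0.33 ± 0.07) and cyclin G1, CCNG1 (0.22 ± 0.05), also rose. GDF15, a secreted stress cytokine, was at 1877, 1665 and 1711 at 100 nM, against 1479, 1448 and 1669 in DMSO. These ranges overlapped, and its change of 0.19 ± 0.07 was not called (adjusted p 0.16). GADD45A, a growth arrest gene, and BTG1, an antiproliferative gene, had log2 changes of -0.004 and -0.04, the only members of the 3 sets below 0.

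Targets of repair and metabolism had the highest share called, 10 of 13, with a median of 0.46. ACER2, an alkaline ceramidase, gave 289, 318 and 256 at 100 nM, against 122, 120.1 and 124 in DMSO, a difference many times the spread of either group (1.13 ± 0.11, adjusted p 3.6e-07). SESN1, a sestrin that restrains growth signalling, gave 555, 549 and 462 at 100 nM, against 249, 245 and 267 in DMSO (0.99 ± 0.09). DDB2, the damage sensor of nucleotide excision repair, gave 2139, 2189 and 1990 at 100 nM, against 1183, 1298 and 1392 in DMSO (0.70 ± 0.07, adjusted p 9.5e-07). In all 3 genes every 100 nM array was above every DMSO array. XPC, the partner sensor in that pathway, rose by 0.44 ± 0.09 and POLH, a polymerase that copies past lesions, by 0.39 ± 0.08. For POLH the other 4 tested probe sets were not called, at 0.06 to 0.61, and its own call was lost without DMSO replicate 2 or replicate 2 of the 100 nM group. RRM2B, a ribonucleotide reductase subunit (0.48 ± 0.08), TIGAR, a regulator of glycolysis (0.46 ± 0.05), and TRIAP1, a p53-regulated inhibitor of apoptosis (0.27 ± 0.04), also rose. SESN2, ALDH4A1 and CPT1C were not called, at 0.23, 0.14 and 0.05.

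Among targets of cell death 7 of 14 rose and 0 fell (median 0.34). FAS, a death receptor, gave 1715, 1730 and 1652 at 100 nM, against 989, 987 and 1071 in DMSO. It had the smallest p of the 3 sets, at a log2 change of 0.73 ± 0.05 and an adjusted p of 4.4e-10. TNFRSF10C, a decoy receptor for the death ligand TRAIL, gave 229, 259.7 and 156 at 100 nM, against 70.6, 83.9 and 94.2 in DMSO (1.20 ± 0.17). Its 4 tested probe sets all rose, by 0.65 to 1.20, so the order of arrays did not rest on 1 of them. TNFRSF10A, a signalling receptor for the same ligand, rose by 0.47 ± 0.06, while TNFRSF10B, the other one, was at 0.12 ± 0.04 and not called (adjusted p 0.10). AEN, a nuclease of apoptotic cells, rose by 0.51 ± 0.07, BAX, the pore-forming effector, by 0.46 ± 0.10, and PIDD1, a death domain protein, by 0.72 ± 0.15. The BH3-only gene PMAIP1 (0.13 ± 0.08), the caspase activator APAF1 (0.12 ± 0.12) and PERP (0.11 ± 0.04) were not called.

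Other genes with the largest rise were outside these lists. UNC5B-AS1, an antisense RNA of the UNC5B locus, had the largest rise of any named gene, with 154, 126 and 104 at 100 nM, against 39.8, 34.8 and 58.3 in DMSO. Its lowest 100 nM array was well above its highest DMSO array (1.26 ± 0.16, adjusted p 2.2e-05). The probe set annotated to MIR34A gave 629, 528 and 825 at 100 nM, against 220, 305 and 308 in DMSO. All 3 treated arrays were above the DMSO arrays, though they spread widely among themselves (1.20 ± 0.17, adjusted p 5.6e-05). This array reads polyadenylated transcripts, so the mature arms shown above were not measured. INPP5D, an inositol phosphatase, rose by 1.10 ± 0.13 and its dimmer probe set was at 0.39 and not called. CYFIP2, a subunit of the actin-regulating WAVE complex, rose by 0.98 ± 0.13 and in its other probe set by 0.73. LCE1B, a late cornified envelope gene, rose by 1.04 ± 0.17, CYSRT1 by 0.98 ± 0.13, and FAXDC2, a fatty acid hydroxylase family member, by 1.00 ± 0.19.

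**Figure D2:**
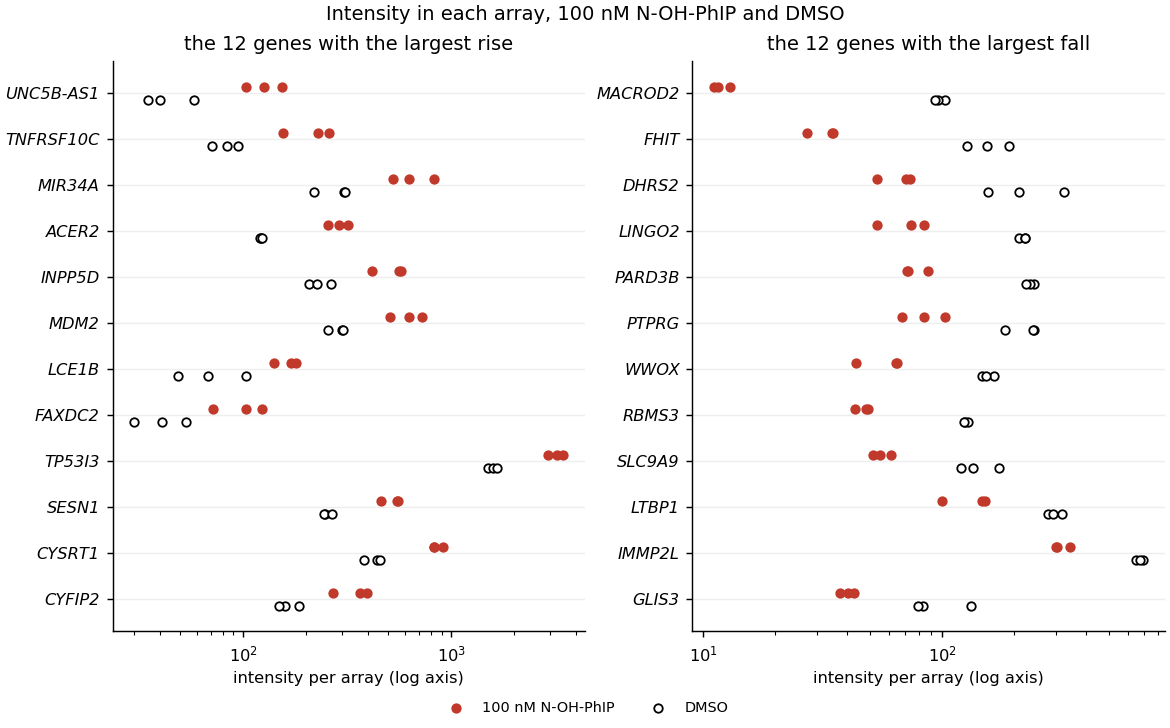
Intensity of the 12 genes with the largest rise (left) and the 12 with the largest fall (right) on a log axis, 1 point an array, with the 100 nM arrays filled red above the DMSO arrays in open circles. By the rule that chose these genes the groups do not overlap in any row, and MACROD2 has the widest gap, at 11.1 to 13 at 100 nM and 93.5 to 103 in DMSO.

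The genes that fell most were long. Of the 12 genes with the largest fall 11 span from 453 to 2060 kb of the genome, and DHRS2, at 15.5 kb, was the exception. FHIT, a hydrolase of diadenosine triphosphate that spans 1500 kb, gave 34.6, 27.2 and 35.0 at 100 nM, against 127, 155 and 190.4 in DMSO (-1.83 ± 0.13, limma adjusted p 7.3e-10). Its 100 nM arrays were under the level minimum of 37.4, so the size of that fall depends on the offset, and no other probe set of FHIT was tested. PARD3B, a cell polarity gene of 1070 kb, gave 87.7, 71.7 and 72.0 at 100 nM, against 243, 234 and 224 in DMSO (-1.43 ± 0.13, adjusted p 6.5e-08). LINGO2, a leucine-rich repeat membrane protein of 1280 kb, gave 84.0, 74.5 and 53.2 at 100 nM, against 210.4, 223 and 224 in DMSO (-1.46 ± 0.12). In these 3 genes the highest 100 nM array was far below the lowest DMSO array.

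WWOX, an oxidoreductase gene of 1110 kb, gave 65.0, 64.2 and 43.7 at 100 nM, against 147, 165 and 152 in DMSO on its probe set of largest change (-1.22 ± 0.11). Of its other 3 tested probe sets 2 fell and 1 was at 0.03 and not called. MACROD2, an ADP-ribose hydrolase gene of 2060 kb, gave 11.5, 13 and 11.1 at 100 nM, against 103, 96.6 and 93.5 in DMSO on its probe set of largest change (-2.03 ± 0.11, adjusted p 3e-12). Its 100 nM arrays were under the level minimum, and the low side of that change depends on the offset. A second probe set fell by 1.01, and the brightest one, at -0.29, was not called (adjusted p 0.29). IMMP2L, a mitochondrial inner membrane peptidase gene of 900 kb and the brightest of the group, gave 344, 299 and 303 at 100 nM, against 649.6, 695 and 675 in DMSO. Its arrays were tight in both groups (-1.06 ± 0.13). PTPRG, a receptor tyrosine phosphatase (-1.24), RBMS3, an RNA-binding protein (-1.18), SLC9A9, an endosomal sodium-proton exchanger (-1.13), LTBP1, which binds latent TGF-beta (-1.09), and GLIS3, a zinc finger factor (-0.999), made up the rest of the long genes.

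A list of very long and fragile site genes, also chosen with earlier results of these data known, held 29 tested members. Of these 20 fell and 0 rose (median -0.40, against 0.02 over all genes). At an unadjusted limma p under 0.05 there were 25 lower and 0 higher. The members that fell included the receptor phosphatases PTPRM (-0.43) and PTPRK (-0.36), the pyrimidine-degrading enzyme DPYD (-0.74), the recombination gene RAD51B (-0.60), the formin DIAPH2 (-0.87) and the transcription factor FOXP1 (-0.24). DMD, the dystrophin gene, was at -0.06 ± 0.07 and not called, and so were AUTS2 (0.06), ZBTB20 (0.01) and TRAPPC9 (0.12).

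The fall with length held over all genes and not for the list alone. Length here is the span of the gene in RefSeq's GRCh38.p14, known for 12164 of the 12174 genes. Among the 212 genes of 400 kb or more 85 fell (40.1%) and 1 rose (0.472%), with a median log2 change of -0.29, and 182 of the 212 changes were below 0. From 200 to 400 kb 14.2% of 557 genes fell and 0.539% rose, with a median of -0.13. From 100 to 200 kb 2.44% of 1355 genes fell and 0.959% rose, with a median of -0.04. From 50 to 100 kb the shares were about even, at 1.06% lower and 1.16% higher of 1990 genes. Below 10 kb 0.48% of 2710 genes fell and 2.73% rose, with a median of 0.06. Genes of 200 kb or more were 769 in number and made up 66.1% of all genes that fell. The median length was 301 kb for genes that fell and 18.6 kb for genes that rose, against 28.9 kb for all. Across genes the log2 change had a Spearman correlation of -0.34 with length. Genes are not independent replicates, all share the same 6 arrays, and no test was made of this correlation.

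The excess of falls among long genes was seen at low and at high level. Of genes of 400 kb or more, 41.6% of the 149 below the median mean level fell, and 36.5% of the 63 above it. Exceptions were few and were picked out after their values were seen. The genes of 200 kb or more that rose were 4, namely KIAA1217 (853 kb, 0.25 ± 0.07), the long noncoding RNA PVT1 (0.43 ± 0.09), the centriole gene RTTN (0.27 ± 0.06) and TMEFF2, a transmembrane protein (0.19 ± 0.03). Among the 5548 genes under 25 kb 22 fell and 137 rose. DHRS2, a short-chain dehydrogenase of mitochondria, had the largest fall of these, with 70.9, 73.3 and 53.2 at 100 nM, against 156, 324 and 211 in DMSO. The DMSO arrays spread more than those at 100 nM but stayed above them (-1.54 ± 0.18, adjusted p 3.8e-06), and its second probe set fell by 1.10.

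**Figure D3:**
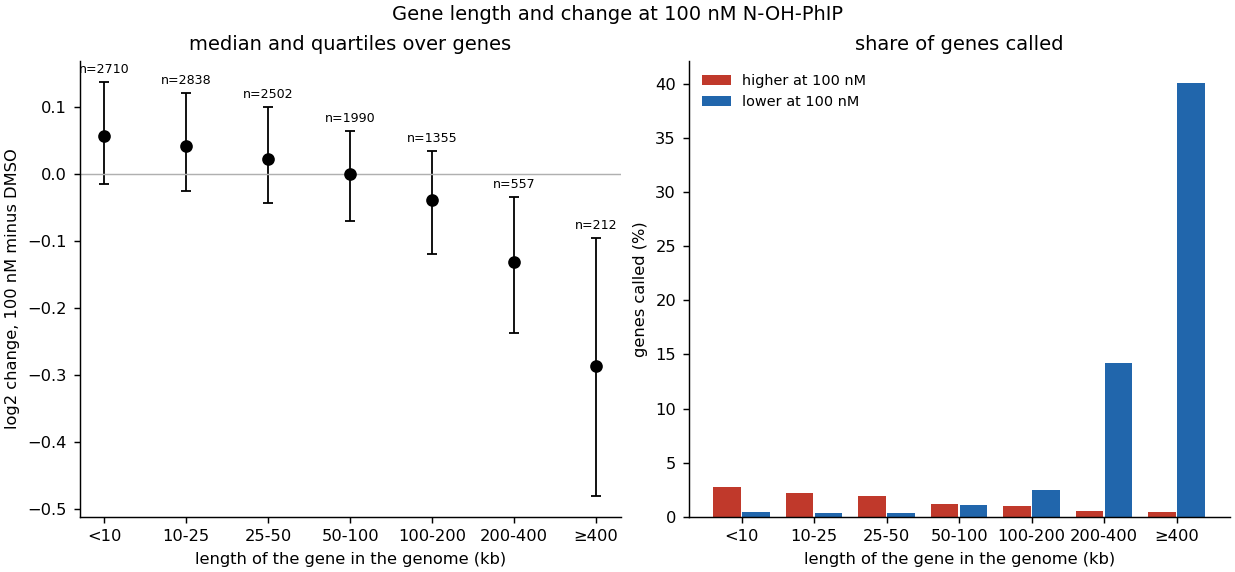
Left, median log2 change (points) with quartiles (bars) of genes at 100 nM N-OH-PhIP minus DMSO, in 7 classes of gene length in kb with the number of genes in each. Right, the share of genes called higher (red) and lower (blue), which is 2.73% and 0.48% below 10 kb and 0.472% and 40.1% at 400 kb or more.

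Lists of other processes had smaller shares of members called than the p53 and very long gene lists. Of all 33 lists, those included, 12 had no call. Against DMSO 1.85% of all genes were higher and 2.04% lower, the shares beside which the list counts here and below are to be read. In nucleotide excision repair DDB2 and XPC rose and 20 of 22 genes were not called. In Fanconi and homologous recombination repair RAD51B, itself a gene of 863 kb, and FANCE, a core complex subunit (-0.18 ± 0.05), fell, and 21 of 23 were not called. None of 18 base excision and mismatch repair genes was called. At an unadjusted limma p under 0.05 there were 3 lower and 0 higher, where over all genes 7.52% were lower and 9.31% higher. Among 41 DNA replication and G1/S genes 3 fell by small amounts and 0 rose. They were RRM2, a ribonucleotide reductase subunit, with 4058, 4127 and 4057 at 100 nM, against 4546, 4668 and 4795 in DMSO (-0.19 ± 0.03), MCM10, a replication initiation factor (-0.25 ± 0.06), and CDC45, a helicase subunit (-0.20 ± 0.06). The RRM2 groups were each tight and well apart. The other tested probe set of RRM2, at -0.12, was not called, and neither were the other 2 of MCM10, at -0.15 and -0.04. Among 38 G2/M genes 1 fell, the mitotic kinase AURKA (-0.14 ± 0.04), and its other 2 tested probe sets, at -0.15 and -0.14, were not called. In the histone list H2BC12 and H2BC21 rose by 0.51 each, and the other 5 of 7 tested were not called. H1-1, a histone gene outside that list and picked out after its value was seen, fell (-0.60 ± 0.12, limma adjusted p 0.0026). BCL2, an inhibitor of apoptosis, was the only one of 19 apoptosis genes outside the p53 lists to be called, with 65.4, 58.9 and 38 at 100 nM, against 88.7, 110.1 and 127 in DMSO. It spans 197 kb, its groups did not overlap and it fell by 0.84 on the log2 scale (SE 0.16), while its other tested probe set was at 0.08. Of the calls in these lists, that of CDC45 was lost when any 1 of the 6 arrays was left out, those of FANCE, AURKA and H2BC21 in 5 of 6 cases, that of MCM10 in 4 and that of RAD51B in 3.

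The interferon-stimulated genes ISG15, IFIT3 and IFITM1 rose by 0.52, 0.52 and 0.44, and 20 of 23 members were not called (median 0.16). ISG15, a ubiquitin-like modifier, gave 1136, 1366 and 1237 at 100 nM, against 833, 834 and 922 in DMSO, with all treated arrays higher. The other probe set of IFIT3 was at 0.22 and not called. Among 13 tested mesenchymal and matrix genes 1 rose, 3 fell and 9 were not called. The smooth muscle actin gene ACTA2 rose (0.67 ± 0.12). N-cadherin, CDH2 (-0.55 ± 0.11), tenascin, TNC (-0.39 ± 0.08), and fibronectin, FN1 (-0.23 ± 0.06), fell. Keratin 19, KRT19, rose by 0.34, claudin 4, CLDN4, by 0.40 and stratifin, SFN, itself a known p53 target, by 0.29, with 24 of 27 epithelial genes not called. The stress list for misfolded proteins and the integrated response held 29 tested members (median -0.08). Of these 3 fell, 1 rose and 25 were not called. Counting an unadjusted limma p under 0.05 gave 10 lower and 2 higher, where over all genes 7.52% were lower and 9.31% higher. HERPUD1, a component of protein disposal from the endoplasmic reticulum, fell by 0.33, the sensor kinase ERN1 by 0.23 and the transcription factor CEBPB by 0.17. The other tested probe sets of ERN1, at 0.28, and of HERPUD1, at -0.11, were not called. NUPR1, a stress-induced chromatin protein, rose by 0.49. The heat shock gene HSPA4L rose by 0.42, and HSD17B7, an enzyme of cholesterol synthesis, by 0.21. The other tested probe sets of HSPA4L, at 0.16, and of KRT19, at 0.25, were not called. Among 20 TGF-beta and SMAD targets LTBP1 was the only one called. The call of FN1 was lost when any 1 of the 6 arrays was left out, those of SFN, CLDN4 and HSD17B7 in 5 of 6 cases, that of NUPR1 in 4 and those of ISG15, IFIT3 and KRT19 in 3. Those of ERN1 (2 cases), IFITM1, TNC and CEBPB (1 each) were lost less often.

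Enzymes that handle such amines showed no call. None of 11 tested heterocyclic amine metabolism enzymes, 5 aryl hydrocarbon receptor targets and 24 NRF2 antioxidant genes was called against DMSO. At an unadjusted limma p under 0.05 the enzymes had 3 higher and 2 lower, the receptor targets 0 and 1, and the antioxidant genes 3 and 2. Over all genes 9.31% were higher and 7.52% lower at that threshold. Against the mean of the 6 lower doses, a comparison described below in which 2.91% of all genes were higher, 4 of the 24 antioxidant genes rose and 0 fell. They were NQO1 (0.15), also the 1 receptor target called there, the peroxiredoxin PRDX1 (0.12), the transketolase TKT (0.22) and the aldo-keto reductase AKR1C3 (0.30). None of the 11 metabolism enzymes was called in it. CYP1A1, the oxidase most typical of receptor activation, stayed under the level minimum, at 20.6, 24.2 and 16.2 at 100 nM, against 20.3, 32.6 and 30.9 in DMSO, and was not tested. CYP1B1 was at 199, 226 and 172 at 100 nM, against 172, 139.5 and 192 in DMSO, with overlapping ranges (0.23 ± 0.11, adjusted p 0.34). NQO1, a quinone reductase, was at 2995, 3034 and 3217 at 100 nM, against 2833, 2925 and 3063 in DMSO, again overlapping (0.07 ± 0.04, adjusted p 0.50), and its call against the lower doses had an adjusted p of 0.0091. HMOX1, heme oxygenase, was dim and did not differ beyond its spread, at 33.4, 31.9 and 30.6 at 100 nM, against 29.9, 35.5 and 30.9 in DMSO.

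**Figure D4:**
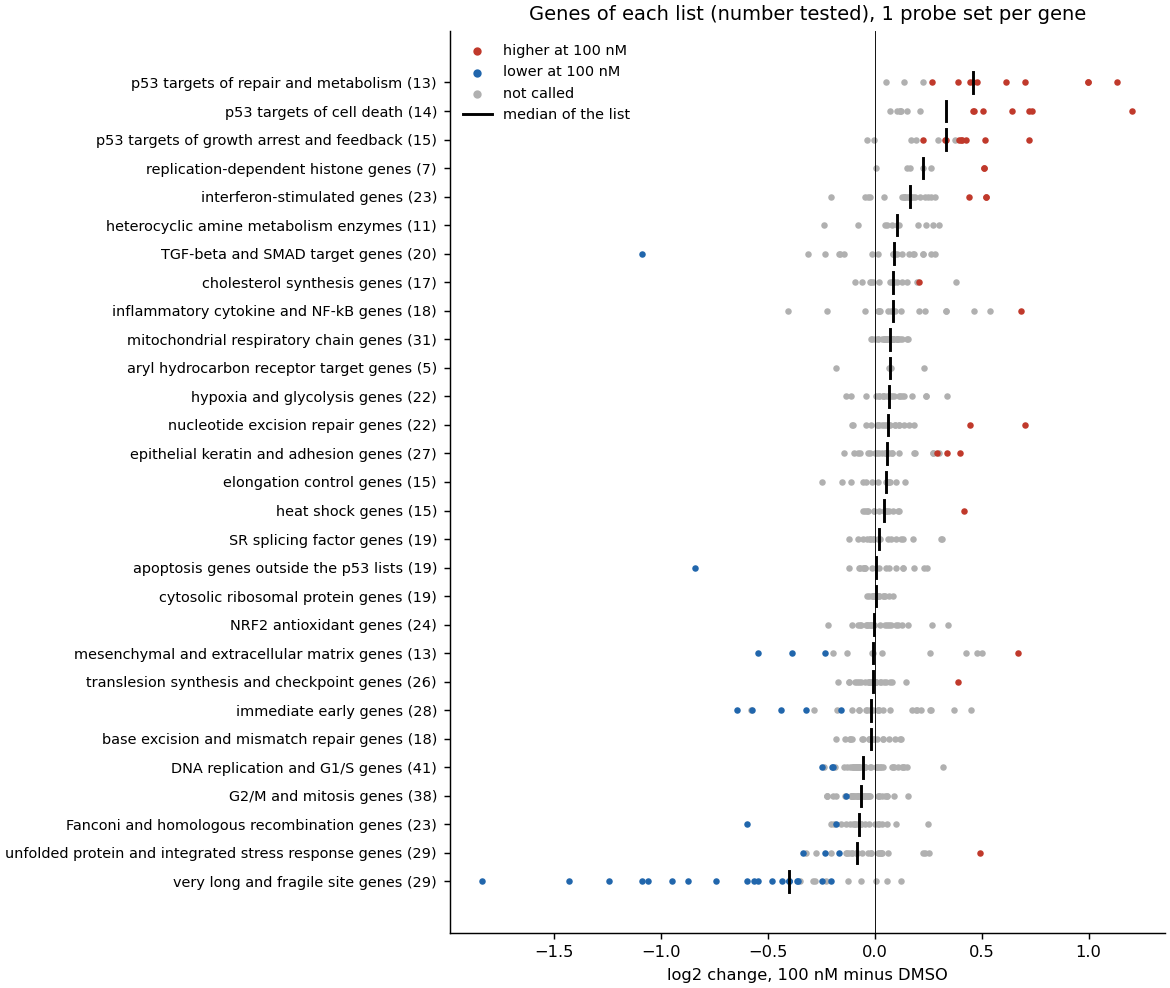
Log2 change at 100 nM N-OH-PhIP minus DMSO of each tested gene in the 29 lists with at least 5 tested genes, ordered by median (black bar), with called genes in red (higher) or blue (lower) and the others grey. The 3 lists of p53 targets lie at the top with medians of 0.46, 0.34 and 0.33, and the very long and fragile site genes at the bottom with a median of -0.40. The lists were chosen with earlier results of these data known.

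Because a chance deviation of the 3 DMSO arrays enters every change above, the 100 nM arrays were also set against the mean of the 6 lower doses, which uses no DMSO array but the same treated arrays. Of the tested probe sets 1241 (4.54%) were called, 648 higher (2.37%) and 593 lower (2.17%). Per gene the shares were 2.91% higher and 3.07% lower. The count of calls was 574 without replicate 3 of the 100 nM group, 696 without its replicate 1 and 826 without its replicate 2. In the p53 target lists 26 of 42 genes rose and 0 fell, with a median of 0.26. In the list of very long genes 21 of 29 fell and 0 rose, with a median of -0.40, and 43.9% of all genes of 400 kb or more fell. FHIT was at -1.88 ± 0.10, MACROD2 at -1.87 ± 0.08, TP53I3 at 0.88 ± 0.06 and FAS at 0.54 ± 0.04 in this comparison. DHRS2 was at -1.08 ± 0.14 and UNC5B-AS1 at 0.81 ± 0.13, beside -1.54 and 1.26 against DMSO, and these differences were not tested. ZMAT3, at 0.18 ± 0.06, was not called (adjusted p 0.057).

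For the immediate early genes, which answer growth signals within minutes, the calls differed with the arrays that served for comparison. Against DMSO 5 of 28 fell and 0 rose, where 2.04% of all genes were lower and 1.85% higher. At an unadjusted limma p under 0.05 there were 7 lower and 5 higher, where 7.52% of all genes were lower and 9.31% higher. JUN, a subunit of the AP-1 factor, gave 1259, 1220 and 1384 at 100 nM, against 1742, 2117 and 1929 in DMSO (-0.58 ± 0.08, adjusted p 2.9e-05), and all 4 of its tested probe sets fell. KLF2 (-0.65 ± 0.15), KLF6 (-0.44 ± 0.11), IER2 (-0.32 ± 0.08) and JUND (-0.16 ± 0.04) were the others. Without 1 array the calls of KLF6 and IER2 were lost in 4 of 6 cases and that of KLF2 in 2. Against the 6 lower doses 0 fell and 6 rose, namely DUSP4, FOSL1, IER5, NR4A3, DUSP6 and EGR3. In that comparison JUN was at -0.04 ± 0.06 (adjusted p 0.80), KLF2 at 0.03 ± 0.11 and IER2 at 0.01 ± 0.06. JUN averaged 1190 with 0.1 nM, 1310 with 0.5 nM, 1220 with 1 nM, 1150 with 5 nM, 1690 with 10 nM, 1490 with 50 nM, 1288 with 100 nM, 1590 with 500 nM and 2240 with 1000 nM, beside 1930 in DMSO. Its level thus followed no steady course with dose. HERPUD1 (-0.03 ± 0.04) and FN1 (-0.03 ± 0.05) were likewise not called against the lower doses. LIF, a cytokine of the IL-6 family, gave 129, 133 and 176 at 100 nM, against 71.6, 85.3 and 96.8 in DMSO, and rose in both comparisons (0.68 ± 0.12 against DMSO and 0.72 ± 0.09 against the lower doses). Of the 18 inflammatory genes LIF was the only one called against DMSO, and 5 rose against the lower doses.

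Few probe sets separated 100 nM from the neighbouring 50 nM dose. Only 26 (0.0952%) were called, 14 higher (0.0513%) and 12 lower (0.0439%), and per gene 0.0739% were higher and 0.0821% lower. An unadjusted limma p under 0.05 was found for 1411 (5.17%), and 5% is the share that this threshold gives when nothing differs. The count was 7 to 15 when any 1 array but replicate 3 of the 100 nM group was left out. FHIT averaged 32.2 ± 4.38 at 100 nM and 87.8 at 50 nM (-1.10 ± 0.13, adjusted p 0.00012). MACROD2 averaged 11.9 at 100 nM and 33.1 at 50 nM on its probe set of largest change (-0.81 ± 0.11), and PARD3B 77.1 at 100 nM and 155 at 50 nM (-0.88 ± 0.13). Both MACROD2 means and the FHIT mean at 100 nM were under the level minimum of 37.4, so the sizes of these changes depend on the offset. FHIT, MACROD2 and PARD3B had the largest falls, and 4 of the 29 very long genes fell. Among p53 targets TP53I3 (0.62 ± 0.08), SESN1 (0.47 ± 0.09) and FAS (0.32 ± 0.05) rose and 39 of 42 were not called, with a median of 0.13. By probe set, the largest rises were those of 1 of the 9 for MDM2 (0.68 ± 0.12), 1 of the 2 for the interferon-stimulated IFIT3 (0.62 ± 0.13) and that for NECTIN4, an adhesion molecule (0.62 ± 0.12). The brightest MDM2 probe set, which stands for the gene in the count of p53 targets, was at 0.17 ± 0.05 and not called (adjusted p 0.43), and the other IFIT3 probe set was at 0.28 and not called. NECTIN4 gave 156, 153 and 115 at 100 nM, against 63.1, 58.8 and 69.9 in DMSO (0.97 ± 0.12). DHRS2 averaged 65.8 at 100 nM and 83.3 at 50 nM and was not called (-0.29 ± 0.18).

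Between 500 and 100 nM 9751 probe sets were called (35.7%), 4853 higher at 500 nM (17.8%) and 4898 lower (17.9%). TP53I3 averaged 6510 at 500 nM and 3195 at 100 nM (1.02 ± 0.08), and FAS 3120 at 500 nM and 1699 at 100 nM (0.87 ± 0.05). IMMP2L averaged 61.5 at 500 nM and 316 at 100 nM, a further fall of 2.11 on the log2 scale, and the median over genes of 400 kb or more was -0.54. DHRS2 (-0.04 ± 0.18) and CDH2 (-0.21 ± 0.11) were not called between these doses. The largest rises were of UCA1, a long noncoding RNA (2.55 ± 0.12), SP6, a zinc finger factor (2.45 ± 0.11), and CEACAM1, an adhesion molecule (2.36 ± 0.19). Of these SP6 had also risen against DMSO, with 86.7, 86.0 and 93.3 at 100 nM, against 58.6, 61.5 and 66.7 in DMSO (0.42 ± 0.11), a call lost when any 1 of the 6 arrays but DMSO replicate 3 was left out, while UCA1 and CEACAM1 overlapped with DMSO and were not called. Against the 6 lower doses both were called higher at 100 nM, UCA1 by 0.33 ± 0.09 (adjusted p 0.033) and CEACAM1 by 0.60 ± 0.14 (adjusted p 0.012), as was SP6 by 0.33 ± 0.09. The actin 3′ to 5′ log2 ratio was 1.67 ± 0.20 at 500 nM and 2.16 ± 0.11 at 100 nM (SD, n = 3 each), and its part in the 500 nM changes was not tested.

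**Figure D5:**
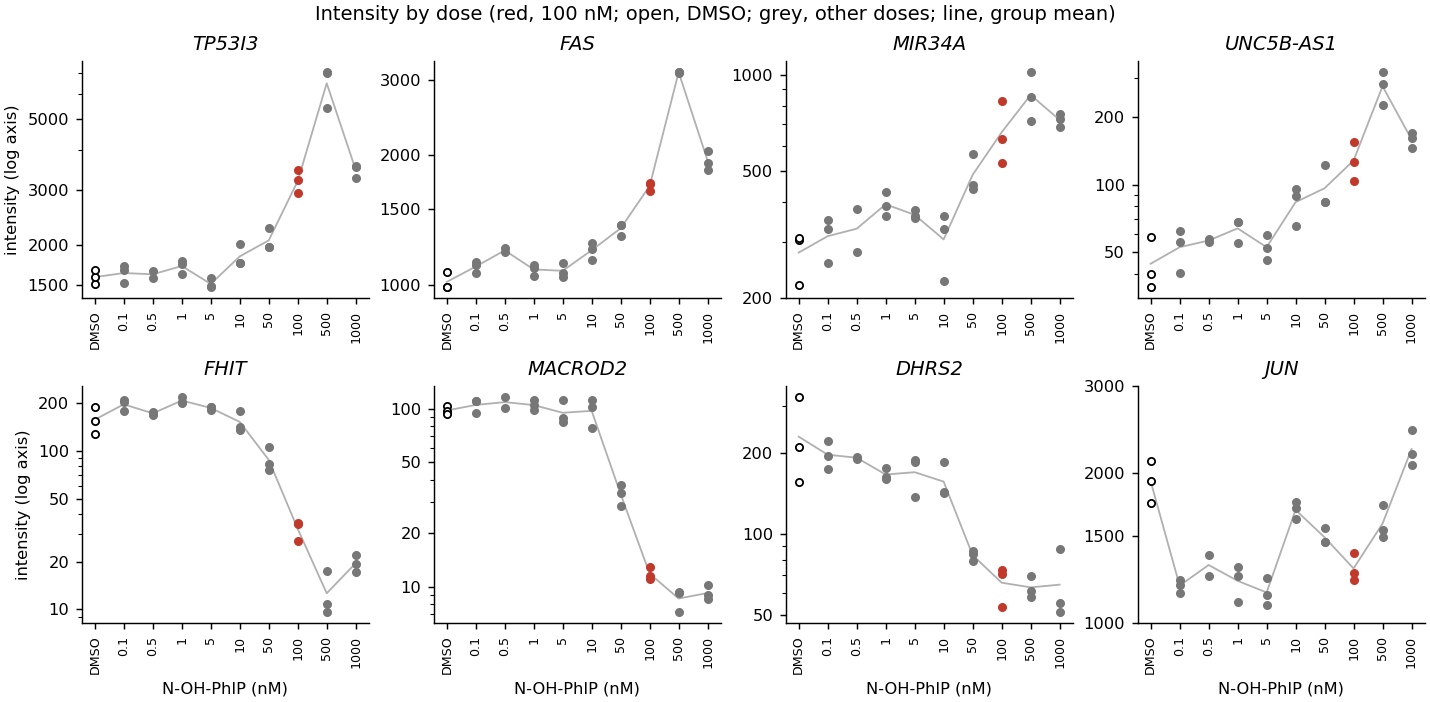
Intensity on a log axis of 8 genes in every array, from DMSO (open) through rising doses of N-OH-PhIP in nM, with the 100 nM arrays in red and the line through group means. TP53I3 and FAS climb from 10 nM to 500 nM, FHIT and MACROD2 drop between 10 and 100 nM, DHRS2 is low from 50 nM on, and the JUN arrays at 100 nM lie below DMSO but level with those at 0.1 to 5 nM.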

How the data were processed

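BEAS-2B RNA was read on an Affymetrix 3′ expression array after NuGEN Ovation amplification, per the labels' protocols. Each probe set has a deposited intensity on a linear scale, brought to a common level across arrays by the authors in a way not given in the sources used here, and GCOS is named in the submitters' processing notes. Values were taken as log2(intensity + 16). Of 54613 non-control probe sets, 41091 carry 1 gene symbol in the array's annotation (41037 matched to the RefSeq gene table), 1801 several and 11721 none. Tested were the 27307 whose mean over all arrays reached the median, 5.74 on the log2 scale (intensity 37.4). A single limma fit gave each of 10 groups a mean over 29 arrays (19 residual degrees of freedom), with empirical Bayes moderation, a mean-variance trend, two-sided tests and Benjamini-Hochberg adjustment over all tested probe sets at 0.05. R 4.3.3, limma 3.58.1 and matplotlib 3.10.9 were used, and the fit was checked on simulated data.

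Per gene, the tested probe set of highest mean stood for the gene. Named were, among called probe sets whose groups do not overlap, the 12 genes that rose most and the 12 that fell most, up to 4 called members of each list with the smallest p, 6 higher and 6 lower genes called in both of the first 2 comparisons, 3 and 3 for the neighbouring doses, and always HMOX1, NQO1, CYP1A1, CYP1B1, GDF15, MDM2 and CDKN1A. Further list members are given with their values. The comparison, the members and the 33 lists were chosen with earlier results of these data known. Correlations of same-numbered arrays' deviations were -0.13, 0.06 and -0.35 between 100 nM and DMSO, -0.04, 0.01 and -0.05 between 100 and 50 nM, and 0.06, 0.20 and 0.14 between 500 and 100 nM. In no comparison were all 3 above 0.1, so the numbers were not taken as pairs. Since no 2 arrays were identical, all were kept, and p-values measure the spread between cultures handled together. The number of arrays limits precision, and neither detection calls nor batch labels were used.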

Additional observations from a re-analysis of the deposited data

How the results depend on the processing

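The count against DMSO was 747 to 885 with no trend, no level filter, an offset of 1, median centring, quantile normalization or a replicate block (763), and 594 with only the 6 arrays. It was 456 over the upper 25% of mean level, where fewer probe sets were tested, and 192 at a minimum of 1.5-fold. Leaving out an array gave 442 to 691. Against the lower doses it was 104 at 1.5-fold and 1978 with only the compared arrays, and 574 to 1272 without 1 array. Leaving out a whole lower dose gave 1001 to 1565. Against 50 nM the 26 calls became 42 with quantile normalization, 13 with no level filter, 15 in the upper 25% of level, 17 without the trend, 11 with only the compared arrays, 13 at 1.5-fold, and 7 to 24 without 1 array. With a replicate block it was 20. At 500 nM against 100 nM the count was 6188 in the upper 25% of level, 4872 with only the compared arrays, 2139 at 1.5-fold and 8003 to 10840 without 1 array. The cause of these differences was not tested, apart from the smaller numbers of probe sets or arrays that some alternatives hold by construction.

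The 26 p53 target genes that rose were 25 to 27 in number under each alternative run for that count. It was not recounted at a minimum of 1.5-fold, with no level filter or over the upper 25% of mean level. Of 72 named probe sets called against DMSO, 24 lost the call in at least 1 alternative and 18 of them other than by leaving out an array, and none reversed. Those that lost it most often were CDC45, FN1, HSD17B7, AURKA and FANCE. A replicate block ended the call of 3. Arrays near background limit what can be said of low levels. The size of a fall to an intensity near or under 37.4, as in MACROD2 and FHIT, depends on the offset.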

Other observations

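Transcripts of the mitochondrial genome moved unequally at 100 nM. They were looked at because ND4, a gene under 25 kb, stood among the genes that fell, so the choice came after the values were seen. Of 9 tested probe sets for such transcripts 4 fell against DMSO and 0 rose. ND4, a subunit of respiratory complex I, had intensities of 6105, 4144 and 6664 at 100 nM, against 9006, 9224 and 9002 in DMSO. The treated arrays were all lower and spread more widely than the DMSO arrays (-0.71 ± 0.13, limma adjusted p 0.0014), and a second ND4 probe set fell by 0.77. COX3, a subunit of cytochrome oxidase, fell by 0.57 ± 0.13, and 1 of the 2 probe sets for COX2, another subunit, by 0.16 ± 0.04. COX1 (0.01 ± 0.13), ND2 (-0.16 ± 0.07), ATP6 (-0.35 ± 0.11) and ND6 (-0.18 ± 0.09) were not called. In limma none of 31 nuclear respiratory chain genes was called, with a median of 0.07, and 6 were higher and 0 lower at an unadjusted p under 0.05, where 9.31% of all genes were higher. ND4 averaged 5640 at 100 nM and 6740 at 50 nM, and 8660 to 9490 at the doses below 50 nM.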
